A study of Mus musculus with 6 samples.

Results

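Interferon-stimulated genes were examined in mouse dermal fibroblasts given endothelin 1 (Et1), a secreted peptide hormone that constricts vessels and acts through G-protein-coupled receptors. The module named 31 genes, and 29 of them had a probe set that the platform annotation gives exactly 1 gene symbol, out of 18193 genes so represented. Each gene was read from the brightest of those probe sets over the 6 arrays. The only probe set listed for Isg15, a ubiquitin-like protein attached to other proteins, also carries a second symbol, so Isg15 was not analysed here, and neither was Ifi44, which had no probe set under its own symbol.

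The Et1 group held 3 cultures of primary dermal fibroblasts exposed to 100 nM synthetic peptide for 24 hours, and the control group held 3 cultures kept in the same serum-containing medium with nothing added. Both groups came from skin explants of newborn B6 pups of mixed sex, aged 0 to 2 days by the sample labels and 0 to 3 days by the design text, and were at passage 6. The design text also says that cells were divided between treated and control cultures, without tying the numbered replicates of the groups to each other. The labels call the arrays of a group biological replicates and do not say how many pups gave each culture, so p-values measure the spread between these arrays. RNA was hybridised to Affymetrix Mouse430_2 arrays. The values are linear signals made by the authors with MAS5, brought here to a common trimmed mean, and 3 arrays a group limit the precision of each comparison.

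Interferons are secreted proteins that warn cells of viruses. Type I interferons bind a receptor of the chains Ifnar1 and Ifnar2, which activates Jak kinases and brings Stat2 and Irf9 into a complex that switches on genes carrying the interferon-stimulated response element, while interferon gamma acts through a receptor with the chain Ifngr1. Dermal fibroblasts carry both receptors and respond to interferons with antiviral proteins, chemokines and antigen presentation.

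None of the interferon-stimulated genes passed the test in either direction after Et1. Testing was limited to signals averaging 41.0 or more, the median of all probe sets. Of the 18193 genes read by their brightest probe set 11666 reached it, and of the 29 members 20 did. Of these 20, 0 passed an adjusted p of 0.05 (limma, Benjamini-Hochberg over 22519 probe sets), where 0.346% of all tested probe sets did. At an unadjusted p under 0.05 there were also 0 of 20, against 12.3% of all tested probe sets and 13.5% of the 11666 tested genes. The means of 10 members were higher and those of 10 lower in Et1 cultures. Their median log2 fold change, Et1 over control, was -0.04, beside 0.05 for the 11666 genes tested by the same rule. Without the filter the median over all 29 members was -0.14, and the median of all genes without the filter was not taken.

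The arrays bound the size of a difference for some members better than for others. The 95% interval of the log2 fold change included 0 for all 20 tested members, and its half-width ran from 0.35 for Ifnar2 to 1.26 for Oas1a, with a median of 0.59. For 14 of the 20 the whole interval lay within 2-fold either way. A rise of 2-fold was outside the interval of 19, the exception being Oas1a, and a fall of 2-fold was outside that of 14. A miss of the threshold does not show that a gene was alike in both groups.

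**Figure D1:**
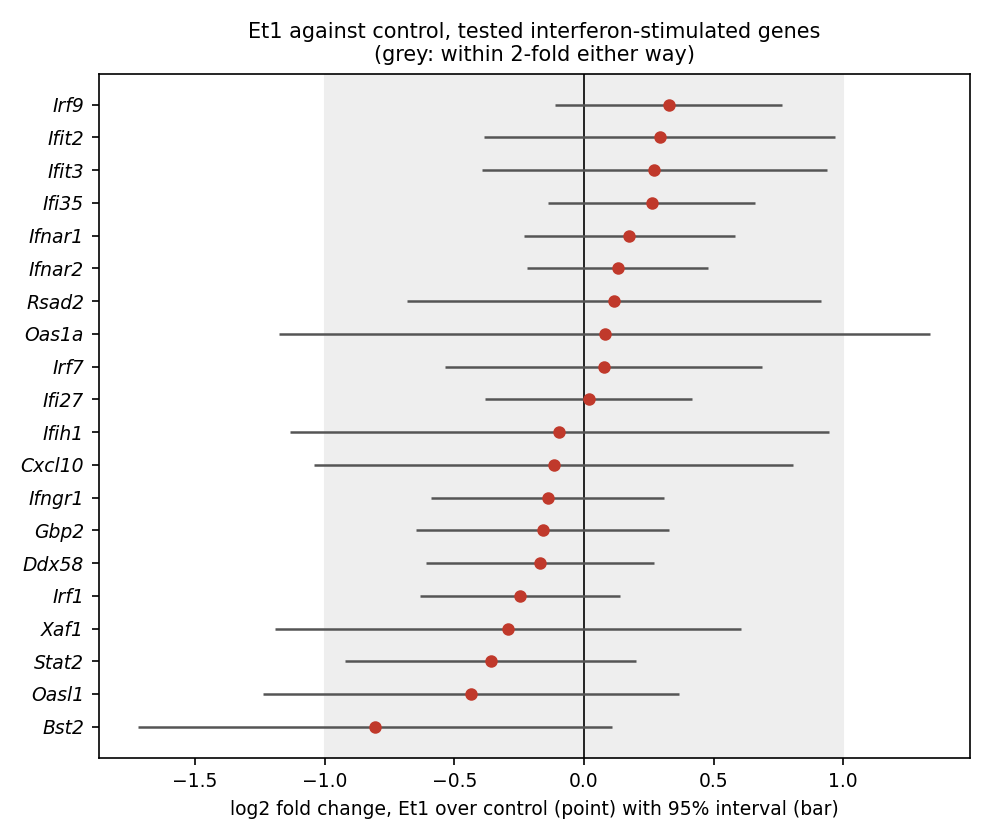
Log2 fold changes, Et1 over control, of the 20 tested interferon-stimulated genes (points) with 95% intervals (bars), ordered by size; the grey band spans 2-fold either way. All 20 intervals cross 0, and Bst2, at -0.81, lies farthest from it.

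The response element was not searched for when the genes were named. They were named as interferon-stimulated, though, a response that runs in part through this element, so its share among them is no independent result. The stretches below are shown because they place it in front of genes whose signals follow. The RefSeq promoter table (GRCm38.p6) held 25 of the 31 genes, as windows of 250 bases before to 50 after each start. The core of the response element, searched as GAAA, any 2 bases and GAAA again on either strand, was present in the windows of 12 of the 25, or 48.0%, and in 3.99% of the 27025 genes in the table. Members with matches at 2 or more places were Bst2, Gbp3, Ifit1, Ifit3, Isg15 and Oas1a, with 3 overlapping places in Isg15. Capitals mark the matches in these stretches, which run 5′ to 3′ along the gene's strand and end before the start. They belong to the 6 tested members with a match before the start that had the smallest unadjusted p.
Bst2: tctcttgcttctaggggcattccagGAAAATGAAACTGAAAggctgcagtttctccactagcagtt
Stat2: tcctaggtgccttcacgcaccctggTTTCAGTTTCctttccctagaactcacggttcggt
Ifit3: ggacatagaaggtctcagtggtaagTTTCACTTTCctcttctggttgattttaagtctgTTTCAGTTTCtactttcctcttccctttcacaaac
Gbp2: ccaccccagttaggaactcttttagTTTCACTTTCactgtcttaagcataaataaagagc
Rsad2: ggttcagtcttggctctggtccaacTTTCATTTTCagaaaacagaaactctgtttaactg
Cxcl10: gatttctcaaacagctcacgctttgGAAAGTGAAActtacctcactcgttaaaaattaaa
The stretch of Bst2, with 2 overlapping matches, lies at chr8:71537562-71537627 on the minus strand. That of Stat2 lies at chr10:128270251-128270310, that of Ifit3 at chr19:34583348-34583441 and that of Gbp2 at chr3:142620579-142620638, all on the plus strand. Those of Rsad2 (chr12:26456538-26456597) and Cxcl10 (chr5:92349068-92349127) are on the minus strand. A match is a description of the letters and does not show a site in use.

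Tested members with and without that core both held signals above and below control. Of the 9 with a match, 3 had higher and 6 lower means in Et1 cultures. Their log2 fold changes ran from -0.81 to 0.27 and their median was -0.12. Of the 10 without a match, 6 had higher and 4 lower means, with a median of 0.10 and a range of -0.43 to 0.33. These ranges overlap over most of their length.

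None of the 3 receptor chains passed the test, and their groups overlapped. Ifnar1, the signalling chain of the type I receptor, read 313, 229.9 and 321 in Et1 cultures, against 235, 259 and 263 in control cultures, and the Et1 values lay on both sides of the control values. Its log2 fold change was 0.18 (SE 0.18, 95% interval -0.23 to 0.58, limma adjusted p = 0.729). Ifnar2, the chain that binds the ligand most tightly, averaged 293 ± 8.92 in Et1 cultures and 268 ± 28.9 in control cultures (SD, n = 3), a log2 fold change of 0.13. Ifngr1, the ligand-binding chain of the receptor for interferon gamma, averaged 237 ± 52.0 in Et1 cultures and 258 ± 21.2 in control cultures (SD, n = 3), a log2 fold change of -0.14.

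A dimmer probe set of Ifnar2 gave another picture. It read 13.3, 49.4 and 57.6 in Et1 cultures, against 60.6, 101 and 71.1 in control cultures, so that the groups did not overlap. Its log2 fold change was -1.17, and it did not pass the threshold (limma adjusted p = 0.430). Et1 replicate 1 was the lowest array, and the other Et1 arrays also lay below every control array. The probe sets of Ifnar2 disagree in sign.

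The transcription factors that carry the signal to the nucleus were measured at moderate levels. Irf9, the DNA-binding part of the type I complex, read 110, 104 and 93.9 in Et1 cultures, against 94.7, 72.8 and 79.0 in control cultures. Only the lowest Et1 array fell below the highest control array. The log2 fold change of Irf9 was 0.33 (SE 0.19, interval -0.11 to 0.77, limma adjusted p = 0.536), the highest among the tested members. Stat2, which supplies the activation domain of the same complex, read 66.7, 50.4 and 64.5 in Et1 cultures, against 91.9, 80.4 and 61.9 in control cultures, and the ranges overlapped. Stat2 thus had a log2 fold change of -0.36 (interval -0.92 to 0.20, adjusted p = 0.597).

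Both remaining factors overlapped between the groups too. Irf1, induced by interferon gamma and a driver of antigen presentation genes, read 196, 183 and 171 in Et1 cultures, against 216, 252 and 189 in control cultures. This amounts to a log2 fold change of -0.25 (SE 0.17, limma adjusted p = 0.597). Irf7, the amplifier of type I interferon production, averaged 75.3 ± 16.0 in Et1 cultures and 71.5 ± 15.7 in control cultures (SD, n = 3), a log2 fold change of 0.08.

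The sensors of viral RNA in the cytoplasm were not distinguishable between the groups. Ddx58, which encodes RIG-I, read 235, 216 and 213 in Et1 cultures, against 322, 229 and 209 in control cultures, and control replicate 1 was the high array. The fitted log2 fold change was -0.17 (SE 0.19, limma adjusted p = 0.759). Ifih1, which encodes MDA5, lay near the filter, at 29.0 to 49.8 in Et1 cultures and 22.2 to 55.8 in control cultures. On the log2 scale the difference was -0.10, with an interval of -1.13 to 0.94.

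The OAS family, which makes an oligoadenylate messenger that activates RNase L, varied strongly within each group. Oas1a read 121, 39.9 and 32.5 in Et1 cultures, against 62.0, 74.8 and 28.6 in control cultures. The Et1 group spanned 3.71 times from its lowest to its highest array, the widest such span of a tested member in that group, and the log2 fold change was 0.08 (interval -1.17 to 1.34). Oasl1, which in mouse holds back the translation of Irf7, read 97.2, 51.3 and 105 in Et1 cultures, against 158, 110 and 74.3 in control cultures. The log2 fold change of Oasl1 was -0.43 (SE 0.35, limma adjusted p = 0.657), and the arrays of the groups were interleaved. Oas2 and Oasl2 were under the filter and reached at most 29.5 and 49.6.

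The IFIT proteins bind viral RNA and block its translation. Ifit2 read 193, 174 and 269 in Et1 cultures, against 166, 116 and 255 in control cultures. Replicate 3 was the highest array in both groups, and the log2 fold change was 0.29 (interval -0.38 to 0.97, limma adjusted p = 0.729). This value rested on single arrays, being 0.016 without control replicate 2 and 0.58 without control replicate 3 (unadjusted p = 0.0485, limma adjusted p = 0.270). Ifit3 read 48.9, 57.0 and 89.7 in Et1 cultures, against 47.7, 56.9 and 52.3 in control cultures, a log2 fold change of 0.27. Its mean was set apart by Et1 replicate 3 alone, without which the log2 fold change was 0.02. Ifit1 was below the filter, at 31.1 to 38.4 in Et1 cultures and 35.2 to 49.4 in control cultures.

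Bst2, or tetherin, which holds budding viruses at the cell surface, was the 1 tested member whose groups did not overlap, 5.00% of the 20. Of all tested probe sets 17.6% did not overlap (9.47% with Et1 higher and 8.11% with Et1 lower). Of the 11666 genes tested by their brightest probe set 19.2% did not. Bst2 read 22.0, 66.3 and 49.7 in Et1 cultures, against 68.4, 75.8 and 74.9 in control cultures. The control arrays lay close together and Et1 replicate 1 was far the lowest. The log2 fold change was -0.81 (SE 0.40, interval -1.72 to 0.11, limma adjusted p = 0.463), the lowest of the tested members. Without Et1 replicate 1 it was -0.35, and with 50 added to each signal it was -0.38. With the replicate number as a block the estimate stayed at -0.81 (unadjusted p = 0.0471, limma adjusted p = 0.251), and 0 members passed in that fit, where 2.52% of all tested probe sets did.

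The other antiviral effectors that could be tested had overlapping groups. Gbp2, a guanylate-binding protein that attacks the vacuoles of intracellular pathogens, averaged 61.0 ± 5.42 in Et1 cultures and 67.9 ± 1.82 in control cultures (SD, n = 3). The difference on the log2 scale was -0.16 (SE 0.21, limma adjusted p = 0.798). Rsad2, or viperin, an enzyme that makes a chain-terminating nucleotide, read 33.8, 58.2 and 45.2 in Et1 cultures, against 49.0, 44.9 and 31.7 in control cultures. For Rsad2 the log2 fold change was 0.12, with an interval of -0.68 to 0.92.

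Cxcl10, a chemokine that draws activated T cells, is also among the chemokines that fibroblasts secrete. It read 46.1, 28.4 and 54.4 in Et1 cultures, against 50.3, 61.3 and 29.4 in control cultures. The groups were interleaved, and the log2 fold change was -0.12 (SE 0.40, limma adjusted p = 0.934).

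The members with the strongest probe signals were Ifi27 and Ifi35, a comparison of probe sets and not of transcript amounts. Ifi35, a leucine-zipper partner of Nmi, read 478, 363 and 453 in Et1 cultures, against 345, 320 and 413 in control cultures. The log2 fold change was 0.26 (SE 0.18, limma adjusted p = 0.588) in that probe set, 0.29 in another and -0.47 in the third, so its probe sets disagreed. The brightest one ends in _s_at and the third in _x_at, marks of probes that can match more than 1 transcript. Ifi27, a small hydrophobic membrane protein, averaged 510 ± 99.6 in Et1 cultures and 498 ± 38.3 in control cultures (SD, n = 3), a log2 fold change of 0.02.

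The other probe set of Ifi27 differed from the brightest one. It read 630.4, 483 and 599.8 in Et1 cultures, against 375, 374 and 455 in control cultures, and the groups did not overlap. Its log2 fold change was 0.51 (unadjusted p = 0.0153, limma adjusted p = 0.273). It ends in _s_at too. Of the 6 other tested probe sets of members 1, this one of Ifi27, had an unadjusted p under 0.05. Of all tested probe sets 12.3% did. The adjusted threshold was passed by 0 of the 6, and by 0.346% of all tested probe sets.

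Xaf1, a partner of the apoptosis inhibitor Xiap, read 37.1, 48.3 and 92.0 in Et1 cultures, against 94.0, 67.9 and 47.5 in control cultures. The arrays of the groups were interleaved. Its log2 fold change was -0.29 (interval -1.19 to 0.60, limma adjusted p = 0.798), it ran from -0.67 to -0.011 with 1 array left out, and another probe set of Xaf1 gave 0.01.

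**Figure D2:**
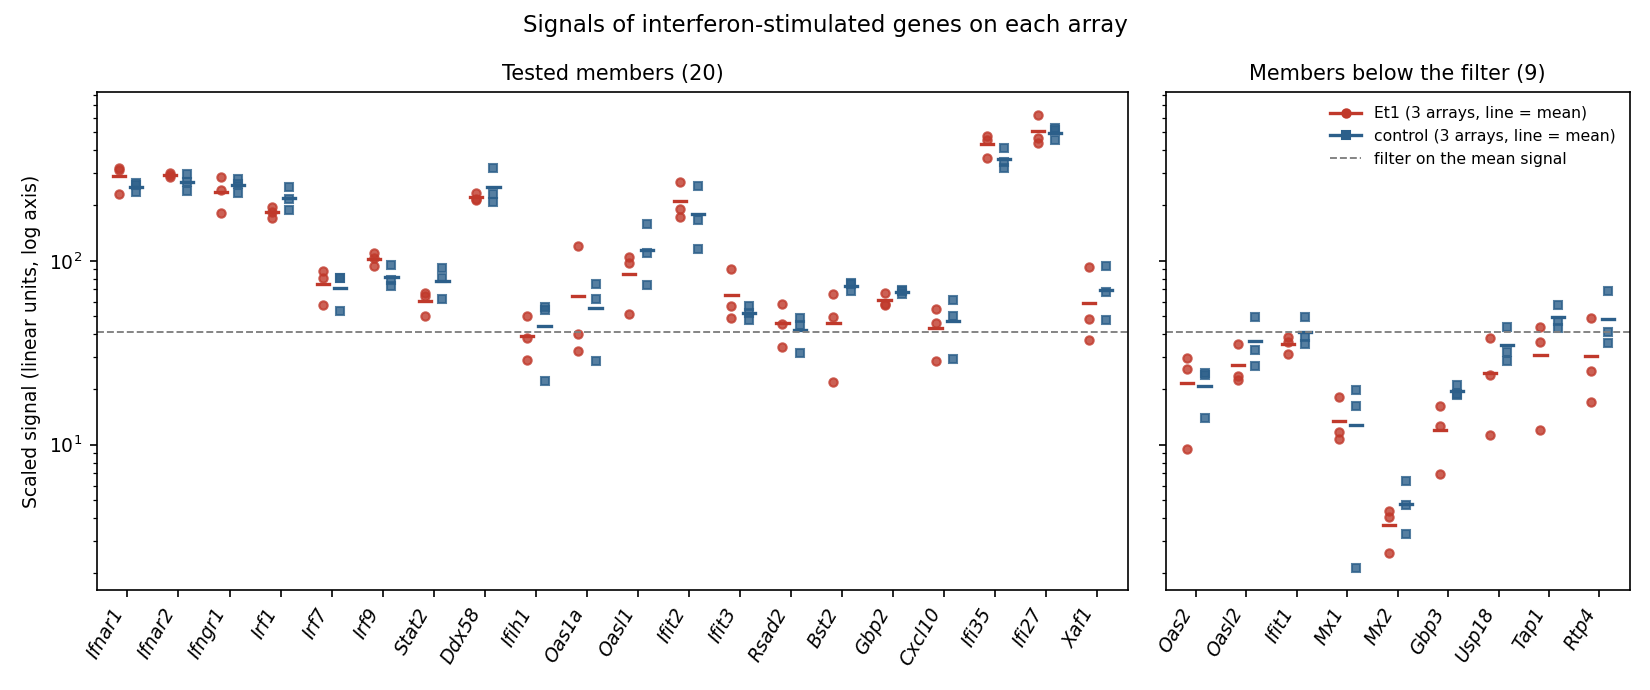
Scaled signals (log axis) of the 29 interferon-stimulated genes on each array, Et1 as red circles and control as blue squares, with the mean of 3 arrays as a line and the filter at 41.0 dashed. The groups overlap for every tested gene except Bst2, and the 9 genes on the right lie below the filter.

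Members below the filter included textbook interferon-induced genes. Their mean signals over the 6 arrays ran from 4.22 for Mx2 to 39.97 for Tap1, and no test was made of them at the filter used. Mx1 and Mx2, genes of a GTPase family, read 10.7 to 18.2 and 2.58 to 4.38 in Et1 cultures, against 2.15 to 19.8 and 3.25 to 6.37 in control cultures. Usp18, the protease that removes Isg15 from proteins, read 11.3 to 38.1 in Et1 cultures and 28.5 to 43.8 in control cultures. Tap1, a chain of the peptide transporter for antigen presentation, read 36.2, 43.9 and 12.1 in Et1 cultures, against 57.8, 43.1 and 46.8 in control cultures.

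Rtp4, a chaperone of receptors, read 17.1 to 48.8 in Et1 cultures and 35.8 to 68.2 in control cultures. Gbp3, a relative of Gbp2, read 6.95, 16.3 and 12.7 in Et1 cultures, against 21.1, 18.8 and 18.7 in control cultures, with no overlap between the groups. Mean log2 signals of 8 of the 9 genes were lower in Et1 cultures, the exception being Mx1. Dimmer probe sets, also under the filter, gave log2 differences of 0.88, -0.55 and -0.27 for Tap1 and 0.62 for Rtp4, so the probe sets of both genes disagree in sign. Of the 11666 tested genes 44.3% had a lower mean log2 signal in Et1 cultures. The share among all genes under the filter was not taken, so the count at these low signals has no like background. Without a filter, 29 members were tested and 0 passed (smallest limma adjusted p = 0.628, with 0.0888% of all probe sets called), and there were 0 at an unadjusted p under 0.05.

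The tested members stood high together on some arrays and low on others, but not by group. Over the 20 genes, the mean deviation of log2 signal from each gene's own mean was 0.04, -0.15 and 0.03 on Et1 replicates 1 to 3, against 0.17, -0.01 and -0.08 on control replicates 1 to 3. Control replicate 1 stood highest and Et1 replicate 2 lowest, and the groups overlapped. On Et1 replicate 2 only 5 of the 20 members were above their own mean, and on control replicate 1 there were 15. Over all 11666 tested genes the mean deviation was -0.0032 on Et1 replicate 2 and -0.0095 on control replicate 1. Et1 replicate 1 held the highest signal of 7 of the 20 genes, more than any other array, and yet held the lowest of Bst2 and Xaf1. Within the Et1 group the highest array exceeded the lowest by a median of 1.54 times over the members, beside 1.40 times over all tested genes, and within the control group by 1.41 times, beside 1.34 times.

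**Figure D3:**
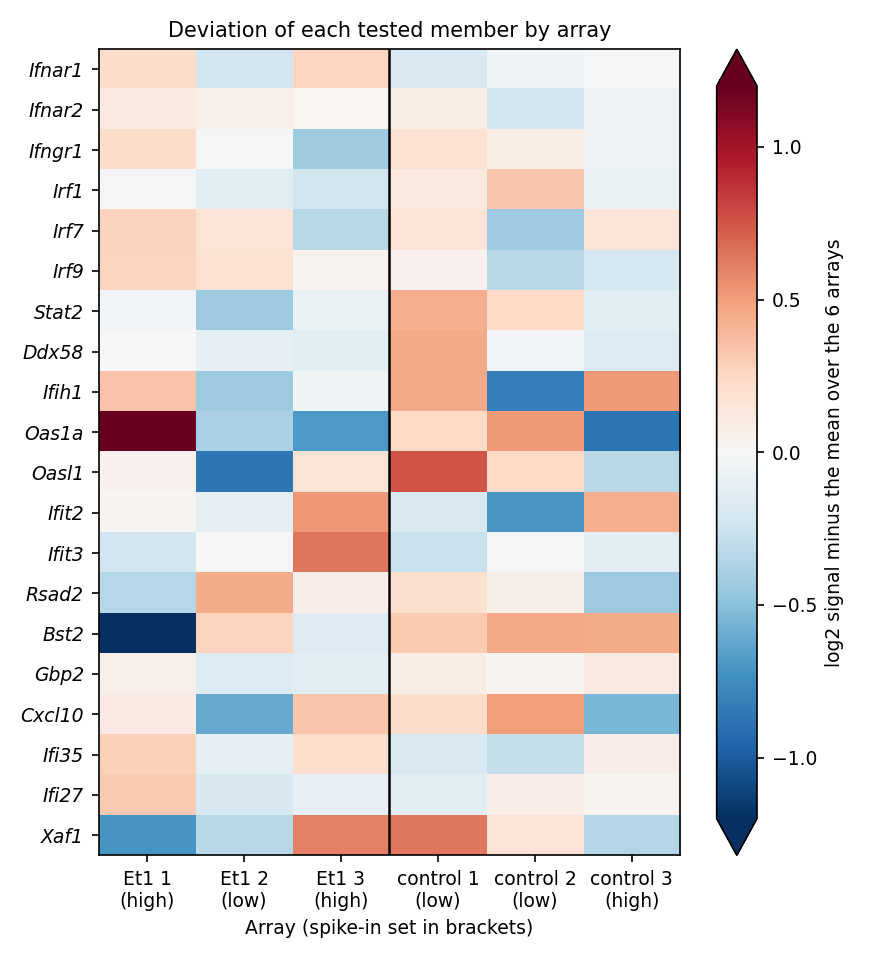
Deviation of the log2 signal of each tested member from its mean over the 6 arrays (colour, log2 units), with Et1 arrays left of the line and control arrays right of it, and the spike-in set of each array in brackets. Red and blue are mixed in both groups; Bst2 on Et1 replicate 1 is low, and Oas1a is high there.

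The arrays also split on probe sets for Bacillus transcripts that serve as spike-in controls, and the differences between the groups were therefore also taken within each side of the split. Mean log2 signals of these 15 probe sets were 4.31 to 5.07 on Et1 replicates 1 and 3 and control replicate 3, and 3.09 to 3.34 on Et1 replicate 2 and control replicates 1 and 2. The deposited 2% trimmed mean was also lowest on Et1 replicate 1, at 91.7, and ran up to 179 on Et1 replicate 3, with 135 to 166 on control arrays. These sets are small, with 2 Et1 arrays and 1 control array in the high set and 1 Et1 array and 2 control arrays in the low set, so the differences within them carry no test. Within the high spike-in set the log2 difference of Bst2, Et1 minus control, was -1.18, and within the low set it was -0.12. For Oasl1 these values were 0.44 and -1.36, and for Oas1a they were 1.13 and -0.77, so the sign turned between the sets. The signal of Oas1a did not line up with the split itself, with both its highest and its lowest array in the high set. With the set as a block 0 of the 20 members passed (smallest limma adjusted p = 0.419), where 3.85% of all tested probe sets did.

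Other genes of the pathway were read from 105 further genes, of which 70 were tested. Of these 0 passed the adjusted threshold, 4 had higher and 4 lower signals at an unadjusted p under 0.05, 11.4% in all beside 12.3% of all tested probe sets, and their median log2 fold change was 0.01. Of the interferon genes read, only Ifnb1 and Ifna1 were above the filter. Ifnb1, interferon beta, the type I interferon that fibroblasts make, read 74.0, 52.6 and 42.2 in Et1 cultures, against 56.6, 54.1 and 70.2 in control cultures. Ifna1, an interferon alpha, had a log2 fold change of -0.20, and the 5 others of this list with a probe set, which are Ifng, Ifna2, Ifna4, Ifna5 and the interleukin Il15, had mean signals between 3.25 and 28.4.

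Among 13 tested signalling genes, 0 passed and the median log2 fold change was -0.08. Socs3, an inhibitor of Jak kinases, read 129, 152 and 178 in Et1 cultures, against 241, 177 and 183 in control cultures, or -0.39 as a log2 fold change (limma adjusted p = 0.475). Jak1, the kinase used by both interferon receptors, and Jak2, used by the interferon gamma receptor, stood at -0.26 and -0.19, and the phosphatase Ptpn2 at 0.44.

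Among 14 tested sensors and adaptors, 0 passed and the median log2 fold change was 0.07. Irf5, a factor downstream of Toll-like receptors, read 99.7, 60.4 and 58.5 in Et1 cultures, against 127, 129 and 84.9 in control cultures, a log2 fold change of -0.66 (unadjusted p = 0.0423, limma adjusted p = 0.389). Cgas, the sensor of cytosolic DNA, stood at 0.51, Tlr2, a receptor for bacterial lipoproteins, at 0.45 and Trim25, a ubiquitin ligase for RIG-I, at -0.31.

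The list of 29 other tested interferon-stimulated genes held the smallest p-values of the pathway, though 0 passed and the median log2 fold change was 0.02. At an unadjusted p under 0.05, 3 of the 29 were higher and 3 lower, 20.7% in all beside 12.3% of all tested probe sets. Groups did not overlap for 27.6% of the list, beside 17.6% of all tested probe sets. These differences in share were not tested. Ifi30, a thiol reductase of lysosomes that prepares antigens, read 646, 671 and 733 in Et1 cultures, against 415, 463 and 469.8 in control cultures. The groups were well apart, and the log2 fold change was 0.61 (SE 0.14, limma adjusted p = 0.131). Ifitm3, a membrane protein that blocks viral entry, read 1643, 1847 and 1304 in Et1 cultures, against 3668, 2778 and 2260.4 in control cultures. Here too the groups did not overlap, with a log2 fold change of -0.85 (SE 0.20, limma adjusted p = 0.139). Mndal, a nuclear protein of the Ifi200 family, and Lgals9, a galectin, stood at -0.67 and -0.51.

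Antigen presentation genes gave 0 calls of 12 tested and a median log2 fold change of 0.11. H2-D1, a class I heavy chain, read 989, 866 and 930.2 in Et1 cultures, against 714, 643 and 832 in control cultures, a log2 fold change of 0.35 (unadjusted p = 0.0444, limma adjusted p = 0.393). B2m, the class I light chain, read 4479 to 5032 in Et1 cultures and 4074 to 4234 in control cultures, with no overlap and a log2 fold change of 0.16. Erap1, which trims peptides, stood at -0.39. H2-Ab1, a class II chain, stood at 0.87, where control replicate 3 was the low array at 12.5.

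**Figure D4:**
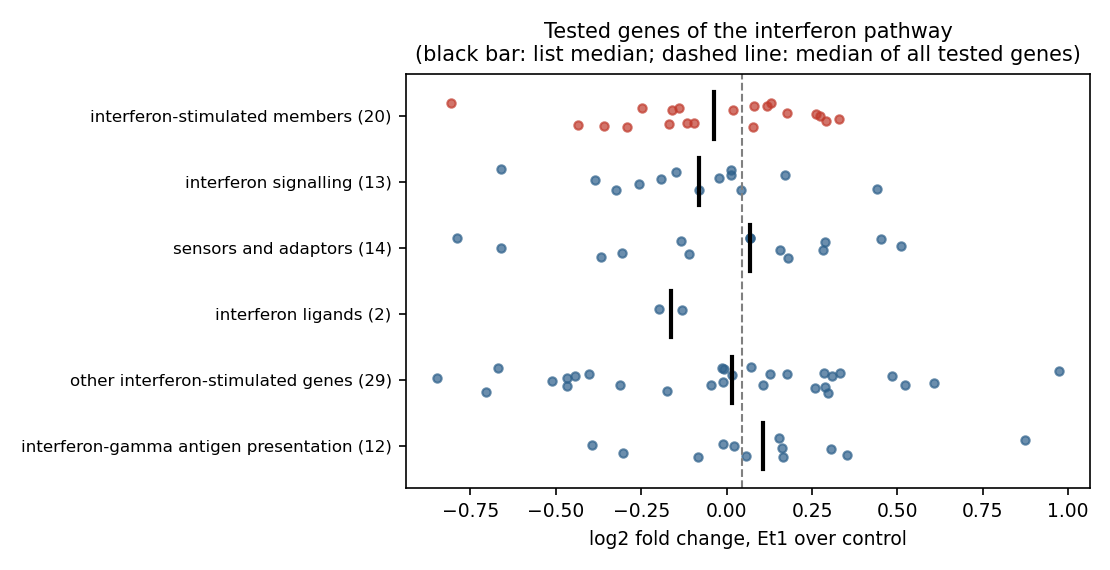
Log2 fold changes, Et1 over control, of the 20 tested interferon-stimulated members (red) and of 70 further tested genes of the pathway in 5 lists (blue); black bars are list medians and the dashed line is the median of all tested genes, 0.05. List medians lie between -0.16 for the 2 ligands and 0.11 for antigen presentation, and no gene passed the adjusted threshold.

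Markers were read to see what cells the cultures held. Of 12 fibroblast markers 11 were above the filter, Lum being the exception, and the brightest were Vim, Col1a2 and S100a4. Summed signals of the fibroblast list ran from 21841 to 35120 in Et1 cultures and from 30658 to 45691 in control cultures. Of 13 macrophage and leukocyte markers 7 were above the filter and Ptprc, the pan-leukocyte antigen, was not, at 7.33 to 30.0 (Lum and Ptprc were chosen for mention after their values were seen). Their sum was 652 to 822 in Et1 cultures and 645 to 691 in control cultures, and that of 7 endothelial markers was 121 to 209.9 in Et1 cultures and 103 to 126 in control cultures. Of the 9 keratinocyte markers 6 were above the filter, with sums of 621 to 718 in Et1 cultures and 545 to 710.2 in control cultures, and of the 6 melanocyte markers 4 were, with sums of 268 to 293 in Et1 cultures and 248 to 303 in control cultures. None of 5 lymphocyte markers was above the filter. Of all 18193 genes read by their brightest probe set 11666 were above it. A count above the filter therefore does not by itself show that a cell type was present.

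Of the 11 tested fibroblast markers 10 had lower means in Et1 cultures, Vim being the exception at a log2 fold change of 0.02. None passed the adjusted threshold, and 3, or 27.3%, had an unadjusted p under 0.05, beside 12.3% of all tested probe sets. These 3, named after their values were seen, were Pdgfrb, a growth factor receptor, at -1.14 (limma adjusted p = 0.0615, with no overlap between the groups), the collagen gene Col3a1 at -1.26 (adjusted p = 0.217) and the surface protein Thy1 at -1.18 (adjusted p = 0.244). The part of any of these cell types in the members' values was not tested, and in bulk RNA fewer cells of a type and less RNA per cell cannot be told apart.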

How the data were processed

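The deposited intensity values are linear MAS5 signals per probe set, per the submitters' processing notes; the sources used here give no version, scaling or build. The deposited table held 45101 probe sets, of which 64 controls were left out. Each array was scaled so that its 2% trimmed mean was the geometric mean of the 6, 139. For the 4 zeros the lowest positive signal on the same array was used, and signals were then put on the log2 scale with nothing added. Probe sets with a mean at or above the median of 41.0 were tested, 22519 in all. Names came from the platform annotation, where 34945 probe sets had 1 symbol, 932 several and 9160 none; of the single symbols 34741 were found by gene identifier in a RefSeq table (GRCm38.p6) and 0 changed.

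Et1 was compared with control in limma 3.58.1 under R 4.3.3, with lmFit and eBayes with an intensity trend, no block, and Benjamini-Hochberg adjustment over all tested probe sets at 0.05. The fit was tested on simulated data. The members and lists were chosen with earlier results of these data known. Named were every member and, of each other pathway list, the genes past the threshold and at most 4 others by smallest unadjusted p, and of each marker list at most 3 by highest mean signal; other markers are said to be chosen later. Affymetrix signals hold no counts, so precision rests on the 3 arrays a group. The experiment files gave 1 distinct text of settings over the 6 arrays, so that text offered no batch label to use as a block. The comparison did not use every field of these files, the operator among them. It therefore does not show that the arrays shared a batch, and they did split on the spike-in controls. The alternatives were quantile and median scaling, other filters, 50 added before log2, no trend, other choices of probe set, single arrays omitted, and blocks for the replicate number or the spike-in set.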

Additional observations from a re-analysis of the deposited data

How the results depend on the processing

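The count of members past the threshold was 0 under the main setting and under each of the 16 alternatives with a test, and the lowest adjusted p among them was 0.210 (limma, Bst2 without Et1 replicate 2). The median log2 fold change of the tested members ran from -0.16 to 0.062 with 1 array left out, and it was 0.11 within the high spike-in set and -0.15 within the low one. Groups did not overlap for 2 members under quantile normalization, 3 with median centring, 2 with no filter and 0 with the 75th percentile filter, against 1 in the main setting. Of all tested probe sets 17.6% did not overlap in the main setting. That share was not taken under the alternatives, so their counts have no background beside them. The count of calls over all probe sets was 78 in the main setting, 44 with median centring, 40 with no filter, 7 with no intensity trend, 51 with the mean of probe sets per gene and 868 with a block for the spike-in set. It was 10, 46 and 6 without Et1 replicates 1, 2 and 3, and 4, 4 and 229 without control replicates 1, 2 and 3. The cause of these shifts was not tested.

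With the replicate number as a block, 567 probe sets and 0 members were called. Deviations from the group means correlated at -0.12, 0.44 and 0.45 between arrays numbered 1, 2 and 3. The values for numbers 2 and 3 were the highest between any Et1 and any control array. These correlations do not settle whether equal numbers are pairs, and the main fit took none. Et1 replicate 1 correlated more with control replicate 3 (0.26) than with its own number.

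Signs turned for 14 of the 20 tested members. Ifnar2 was -0.25 with the mean of its probe sets, and Ifi27 was -0.033 with median centring and -0.042 with the spike-in block. With 1 array left out, log2 fold changes ran from -0.14 to 0.12 for Ifi27, -0.42 to 0.16 for Cxcl10, -0.30 to 0.014 for Ddx58, -0.53 to 0.14 for Ifih1, -0.29 to 0.037 for Ifngr1, -0.12 to 0.26 for Irf7, -0.50 to 0.45 for Oas1a and -0.074 to 0.32 for Rsad2. Within a spike-in set the sign also turned for Oasl1 (0.44), Stat2 (0.084), Xaf1 (0.30) and Ifit2 (-0.16) in the high set and for Ifnar1 (-0.10) in the low set. The other 6 kept their sign under each of the up to 18 alternatives that measured them. At an unadjusted p under 0.05 there was 1 member without Et1 replicate 2 (Bst2), 1 without control replicate 3 (Ifit2) and 1 with the replicate block (Bst2). In the main fit 12.3% of all tested probe sets were under that p. The share was not taken in these fits, so the counts are no result about the members.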
